A study of Mus musculus with 108 samples.

Results

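The pyruvate dehydrogenase kinases Pdk1, Pdk2, Pdk3 and Pdk4 and the phosphatases Pdp1 and Pdp2 were described over 3 tissues, 6 times of day and 2 genotypes. The 6 members were chosen by gene symbol, with earlier results of these libraries known, and the earlier values that drew attention to them are not recorded. Tests of the members are therefore descriptions of these libraries and no independent support for the choice. All 6 were found among the 55416 genes counted. Pdk1 is the pyruvate dehydrogenase kinase and not the phosphoinositide-dependent kinase Pdpk1.

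Whole liver, whole kidney and white adipose tissue, called WAT, were taken for RNA sequencing from mice labelled Bmal1-iKO and Bmal1-flox, written iKO and flox here. All were labelled as male C57BL/J mice of 8 to 12 weeks, kept with 12 h of light a day and free access to food. Sampling times were ZT2, ZT6, ZT10, ZT14, ZT18 and ZT22, where ZT counts the hours since lights came on, with 3 libraries for each tissue, genotype and time. Bmal1 (gene Arntl) is a core transcription factor of the circadian clock, and the series title speaks of the clock of the intestine and of rhythmic metabolism in the liver. The labels name neither the Cre driver nor the cells that lost the gene, and they do not say whether flox mice carry anything besides the flox allele. They do not say that the libraries of a group came from separate animals either, so the p-values reflect how far these samples scatter, and part of that scatter may be technical. In whole tissue, fewer cells of a type and less RNA per cell cannot be told apart.

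The pyruvate dehydrogenase complex sits in the mitochondrial matrix and turns pyruvate from glycolysis into acetyl-CoA, a step that animals cannot reverse. The kinases phosphorylate its Pdha1 subunit and switch it off, and the phosphatases remove the phosphate and switch it on again. In liver, kidney and fat the balance is known to shift with feeding and fasting: Pdk4 transcription rises in fasting, under fatty acid-activated PPAR receptors, FOXO factors and glucocorticoids, and insulin represses it.

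Pdk1 (ENSMUSG00000006494) lies at chr2:71873224-71903858 on the plus strand of GRCm38, Pdk2 (ENSMUSG00000038967) at chr11:95026258-95041354 on the minus strand and Pdk3 (ENSMUSG00000035232) at chrX:93764607-93832201 on the minus strand. Pdk4 (ENSMUSG00000019577) lies at chr6:5483351-5496309 and Pdp1 (ENSMUSG00000049225) at chr4:11958184-11966452, both on the minus strand, and Pdp2 (ENSMUSG00000048371) at chr8:104591451-104599026 on the plus strand. All are protein-coding in GENCODE M21, and no exon base of a member is shared with another gene. RefSeq promoters (GRCm38.p6) were found for 5 members. The 250 bases before a transcription start are shown for the 4 members whose levels carry the results below: chr2:71872974-71873223 for Pdk1, chr11:95041372-95041621 for Pdk2, chr6:5496279-5496528 for Pdk4 and chr8:104591222-104591471 for Pdp2, each 5′ to 3′ on the gene's own strand. Capitals mark the canonical E-box CACGTG, the hexamer that BMAL1 and its partner CLOCK bind.
Pdk1: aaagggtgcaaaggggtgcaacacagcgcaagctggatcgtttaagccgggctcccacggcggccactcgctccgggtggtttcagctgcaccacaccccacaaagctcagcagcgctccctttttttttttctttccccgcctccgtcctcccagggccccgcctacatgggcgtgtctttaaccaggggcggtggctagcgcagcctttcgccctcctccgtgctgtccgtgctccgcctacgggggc
Pdk2: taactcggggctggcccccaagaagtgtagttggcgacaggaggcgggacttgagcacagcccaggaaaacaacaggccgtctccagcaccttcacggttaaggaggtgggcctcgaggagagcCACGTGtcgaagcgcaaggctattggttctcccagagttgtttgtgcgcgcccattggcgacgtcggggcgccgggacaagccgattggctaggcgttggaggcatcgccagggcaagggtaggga
Pdk4: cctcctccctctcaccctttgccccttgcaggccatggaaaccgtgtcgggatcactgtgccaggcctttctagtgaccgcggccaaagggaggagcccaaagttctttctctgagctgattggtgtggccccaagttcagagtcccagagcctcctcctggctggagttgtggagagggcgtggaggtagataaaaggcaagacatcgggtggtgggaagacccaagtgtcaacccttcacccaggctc
Pdp2: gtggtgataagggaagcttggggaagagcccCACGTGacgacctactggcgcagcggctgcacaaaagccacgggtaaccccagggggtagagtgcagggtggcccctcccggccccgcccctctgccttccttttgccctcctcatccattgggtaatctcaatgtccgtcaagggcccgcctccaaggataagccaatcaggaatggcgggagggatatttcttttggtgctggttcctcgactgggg
The E-box was found 126 to 121 bases before the Pdk2 start and 219 to 214 bases before the Pdp2 start, and 6.02% of 32851 RefSeq mouse promoter windows of this length hold it. Both strands of 7 windows of the 5 members were also searched for the nuclear receptor half-site AGGTCA (in 14% of all windows), its direct repeat with 1 free base between the copies (0.0335%), the FOXO motif GTAAACA (3.17%) and the D-box TTATGTAA (0.819%). The last were the glucocorticoid response element, AGAACA and TGTTCT with 3 free bases between them (0.00913%), and the ROR element, AANT directly before AGGTCA (0.177%), and both the repeat and the ROR element contain the half-site. None of these was found, which says only that the letters are not in these windows. GC content of the windows shown was 64.0% for Pdk1, 62.4% for Pdk2, 58.8% for Pdk4 and 60.8% for Pdp2, against a median of 52.4% over all windows. A second window each of Pdk1 (38.4% GC) and Pdk2 (58.8% GC) is not shown and held no E-box.

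Libraries held from 14428000 to 23428000 counts in liver, 13876000 to 22123000 in kidney and 14103000 to 24415000 in WAT. The targeted gene Arntl had 1.91 to 26.3 CPM in iKO livers and 1.70 to 24.4 CPM in flox livers, 2.31 to 41.1 CPM in iKO kidneys and 1.14 to 35.8 CPM in flox kidneys, and 4.96 to 38.4 CPM in iKO WAT and 2.90 to 38.2 CPM in flox WAT. Its averages over the day were not called by edgeR in any of the 3 tissues. A library is named by genotype, time and number, and levels are TMM-scaled CPM. The Arntl values above, Xist and the marker means on the log2(CPM + 1) scale instead use CPM of library totals. Of the liver libraries, 11 were set apart from the other 25 by a mean of 15 cell cycle genes above 2 on the log2(CPM + 1) scale. These genes summed to 132 to 222 CPM in the 11 and 7.90 to 28.9 CPM in the 25, with 14 of 15 not overlapping. They made the choice, so their separation is no separate result. Of the 11, 9 were iKO (ZT6 1 and 2, ZT14 1 and 2, ZT18 1 and 2, ZT22 1, 2 and 3) and 2 were flox (ZT6 1 and ZT22 1). Their macrophage markers summed to 3220 to 6081 CPM, against 92.4 to 1700 CPM in the 25, with 9 of 13 not overlapping, and their interferon-stimulated genes to 807 to 2390 CPM against 103 to 492 CPM (9 of 14). The share of all genes without overlap between the 11 and the 25 was not computed. The 8 hepatocyte markers summed to 49058 to 114032 CPM in the 11 and 74104 to 152198 CPM in the 25, so the tissue label held in both. Xist, which marks female tissue, goes against the male label in 2 of the 11, iKO ZT18 1 and ZT22 3: on the log2(CPM + 1) scale it stood at 8.55 and 8.72 in liver, 7.73 and 8.26 in kidney and 8.97 and 3.86 in WAT, against at most 0.859 in any other library. The genotype averages and the results that moved most are also given without these 11 numbers, a choice made after the data were seen. This leaves 9 iKO and 16 flox libraries and 5 times for an average, since ZT22 then has no iKO library. Such an average therefore covers other times than one over all libraries. At ZT6, ZT14 and ZT18 it rests on 1 iKO library each, number 3. The WAT libraries were mixed tissue: epididymis markers summed to 0.722 to 35567 CPM in iKO and 1.06 to 36632 CPM in flox, and 9 libraries held strong skeletal muscle markers.

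Pdk2 was the most abundant member per gene length in nearly every library, and liver held little Pdk3 and Pdp1. On the scale of reads per gene length and library size (RPKM), Pdk2, the kinase found in most tissues, was the highest member in all 18 iKO and all 18 flox livers. It led in 16 of 18 iKO and 17 of 18 flox kidneys and in 17 of 18 iKO and 18 of 18 flox WAT libraries, and Pdk4 led in the rest. Mean Pdk2 levels in liver were 49.1 ± 14.3 RPKM in iKO and 51.9 ± 12.0 in flox (SD, n = 18 each). By median over 18 flox livers the order after Pdk2 (47.5 RPKM) was Pdk1 with 12.6 RPKM, Pdp2 with 4.37, Pdk4 with 2.51, Pdp1 with 0.425 and Pdk3 with 0.124. By mean, Pdk4 (4.89 ± 8.75) came before Pdp2 (4.64 ± 1.13) and Pdk3 (1.83 ± 4.94) before Pdp1 (0.453 ± 0.340), since Pdk4 reached 39.0 RPKM and Pdk3 15.4 RPKM in single flox livers (SD, n = 18). In flox kidney the medians were 71.6 RPKM for Pdk2, 14.5 for Pdk3, the kinase known for testis and brain, 7.87 for Pdp2, 6.45 for Pdk4, 5.75 for Pdk1 and 1.57 for Pdp1. In flox WAT they were 38.0 RPKM for Pdk2, 9.77 for Pdk1, 5.80 for Pdk3, 3.41 for Pdp2, 2.86 for Pdk4 and 2.08 for Pdp1. In each tissue the range of Pdk2 over flox libraries lay above that of the member next in this order, and every later pair of neighbours overlapped in range.

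**Figure D1:**
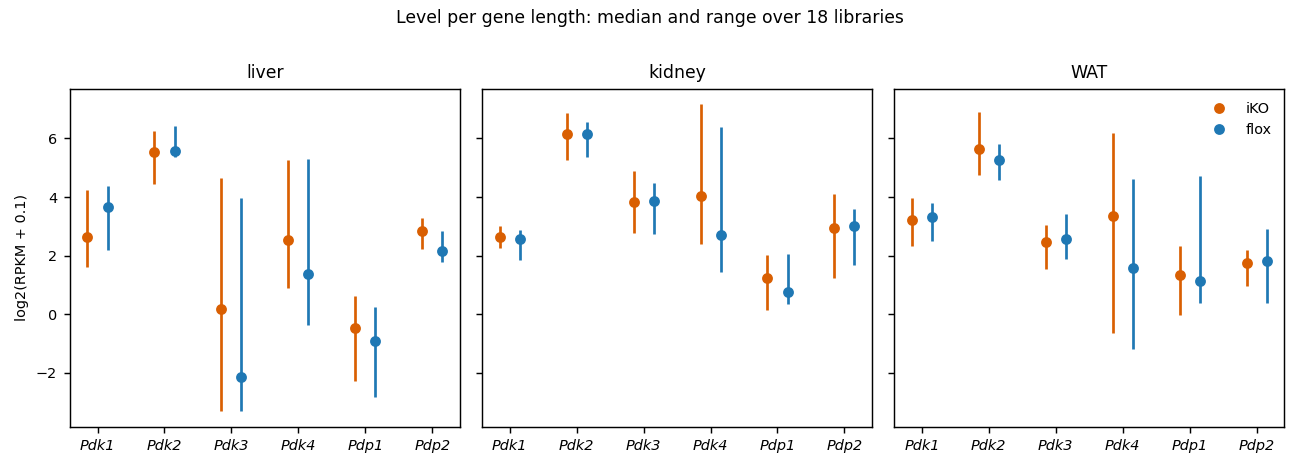
Level of each member per gene length, as log2(RPKM + 0.1), in liver, kidney and WAT; points are medians and lines the range over 18 iKO (orange) or 18 flox (blue) libraries. Pdk2 has the highest median in all panels, Pdk3 and Pdp1 are low in liver, and Pdk4 spans the widest range in kidney and WAT.

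Between tissues of flox mice, all 6 members differed between liver and kidney, 4 between liver and WAT and all 6 between kidney and WAT (edgeR quasi-likelihood test, Benjamini-Hochberg adjusted p under 0.05, which is what "called" means throughout). Tissue differences are common in these data: 62.5% of 22789 genes were called between liver and kidney, 74.2% between liver and WAT and 63.5% between kidney and WAT, so these counts are near the background. Pdk1, a kinase known as a hypoxia target, was 1.2 higher in liver than in kidney on the log2 scale (SE 0.16), and the other 5 members were lower in liver. Pdk3 was 5.38 lower (SE 0.51), Pdp1, the calcium-sensitive phosphatase, 2.22 lower (SE 0.27) and Pdk4 1.67 lower (SE 0.46) in liver than in kidney. Kidney stood above WAT for Pdk4 by 1.43 (SE 0.46), Pdk3 by 1.30 (SE 0.40), Pdp2 by 1.19 (SE 0.16) and Pdk2 by 0.89 (SE 0.12), and below it for Pdk1 by 0.85 (SE 0.16) and Pdp1 by 0.69 (SE 0.25). Between liver and WAT, Pdk1 (0.31, SE 0.16, adjusted p = 0.0724) and Pdk4 (-0.24, SE 0.45, adjusted p = 0.665) were not called. The median of all genes was -0.06 for liver minus kidney, -0.40 for liver minus WAT and -0.26 for kidney minus WAT.

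**Figure D2:**
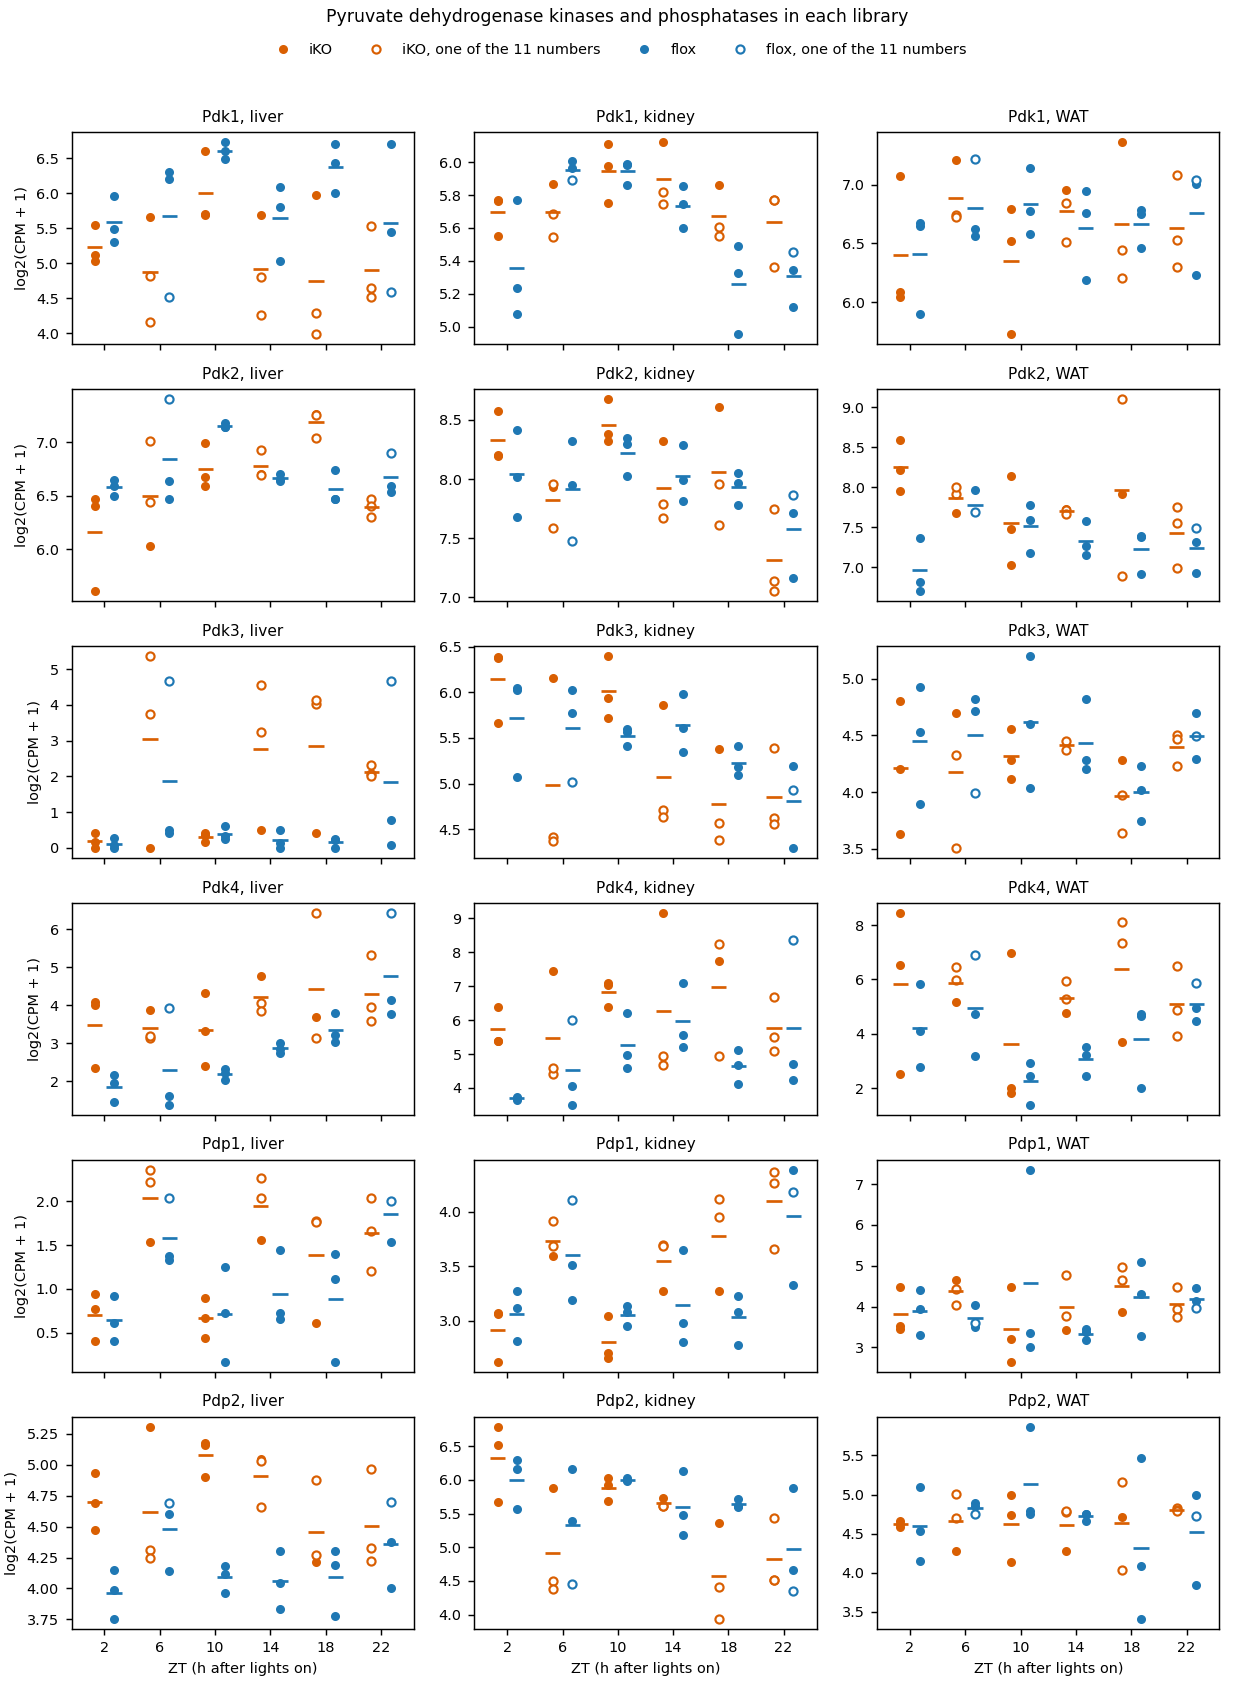
Level of each member in each library as log2(CPM + 1) by ZT, one row per member and one column per tissue; short lines are group means, iKO is orange and left, flox blue and right, and open circles are the 11 numbers. Liver Pdp2 of iKO lies above flox at ZT2, ZT10 and ZT14, liver Pdk3 is high in open circles only, and kidney Pdk4 of iKO lies above flox at ZT2 and ZT10.

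In liver over the whole day, Pdp2 was the member called between genotypes, higher in iKO. This phosphatase gene ran from 17.6 to 38.5 CPM in iKO livers (median 26.6) and from 12.5 to 24.9 CPM in flox livers (median 16.7). At ZT2 its values were 29.6, 21.2 and 24.8 CPM in iKO and 16.8, 14.9 and 12.5 CPM in flox. At ZT10 they were 28.9, 35.1 and 34.8 CPM in iKO and 14.6, 17.2 and 16.4 CPM in flox. At these times, and at ZT14 with 24.3, 31.6 and 32.0 CPM in iKO and 13.2, 15.5 and 18.7 CPM in flox, every iKO liver was above every flox liver. At ZT6 the values were 18.8, 18 and 38.5 CPM in iKO and 24.8, 16.7 and 23.2 CPM in flox. The groups overlapped at ZT6, at ZT18 (28.5, 18.3 and 17.6 CPM in iKO, 17.3, 18.7 and 12.7 CPM in flox) and at ZT22 (19.1, 17.7 and 30.3 CPM in iKO, 24.9, 19.7 and 15.0 CPM in flox). The genotype difference over all 6 times, iKO less flox, came to 0.58 in log2 units (SE 0.11, edgeR adjusted p = 0.00739), with means of 26.1 ± 6.95 and 17.4 ± 3.78 CPM (SD, n = 18 each). It was called in each of 36 fits that left out a library (0.51 to 0.61, adjusted p from 0.00224 to 0.0163), and without the 11 numbers it was 0.77 (SE 0.11, adjusted p = 0.000115). Among iKO livers Pdp2 had a median of 19.1 CPM in the 9 of the 11 and 29.6 CPM in the rest, and among flox livers 24.9 CPM in the 2 of the 11 and 16.5 CPM in the rest. The iKO medians compare different times, since all iKO livers of ZT2 and ZT10 were in the rest and all of ZT22 in the 11. Within a time, the iKO livers of the 11 were lower than the other iKO liver at ZT6 and ZT14 and higher at ZT18. This 1 of 6 members called higher stands against 1.09% of 16582 genes called higher, and 2.64% were called in either direction. At an unadjusted p under 0.05, 4 of 6 members passed, against 24.6% of all genes, and DESeq2 called the same number beside 9.83% of genes.

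In edgeR's test of single times the Pdp2 difference was 1.04 at ZT10 (SE 0.27, adjusted p = 0.692), 0.89 at ZT14 (SE 0.27, adjusted p = 0.193) and 0.78 at ZT2 (SE 0.27, adjusted p = 0.957), and none was called. At ZT10 it was called in a fit of that time alone (1.03, SE 0.16, adjusted p = 0.00804). Groups without overlap and iKO higher were 7.07% of genes at ZT2, 11.2% at ZT10 and 10.1% at ZT14. In kidney Pdp2 was -0.23 for iKO minus flox (SE 0.18, adjusted p = 0.759) and in WAT -0.08 (SE 0.17, adjusted p = 1), with 14.3 to 109 CPM in iKO kidneys and 19.5 to 77.6 CPM in flox kidneys. Its kidney values were lower in the 11 numbers (14.3 to 47.9 CPM) than in the 25 (24.3 to 109 CPM). Proximal tubule markers were lower in these kidneys too, with a median sum of 13396 CPM in the 11 and 29396 CPM in the 25, and all 6 had a lower median. All 6 endothelial markers (475 and 235 CPM) and all 6 fibroblast markers (379 and 173 CPM) had a higher median in the 11, and the part of tissue makeup in Pdp2 was not tested. Without the 11 the kidney difference of Pdp2 was 0.02 (SE 0.18). The liver average minus the kidney average was 0.81 (SE 0.22, adjusted p = 0.0821), which was not called.

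**Figure D3:**
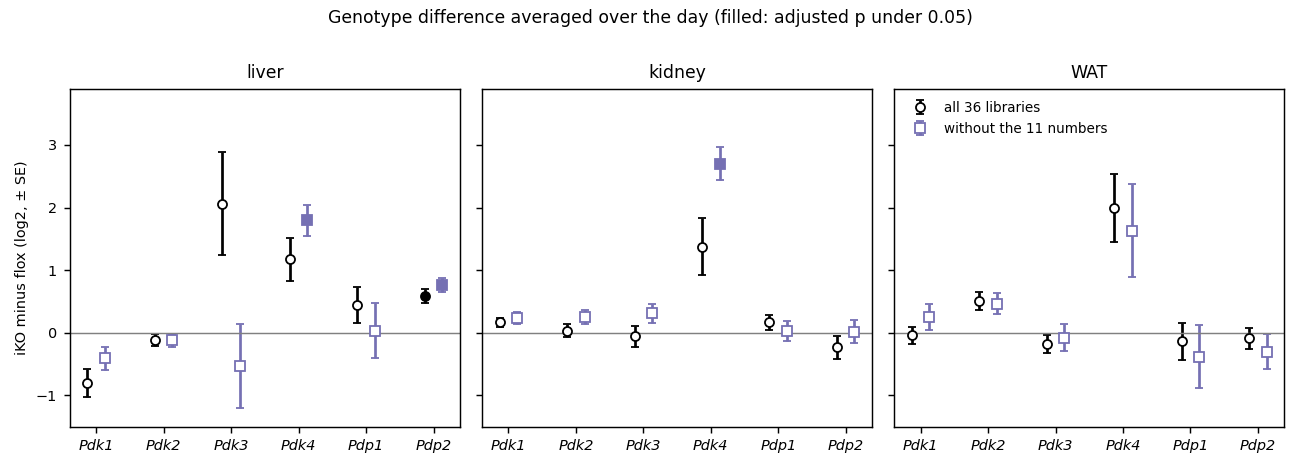
Genotype difference averaged over the day, iKO minus flox on the log2 scale with its SE, for each member in liver, kidney and WAT; circles use all 36 libraries of a tissue and squares leave out the 11 numbers, and filled symbols had an adjusted p under 0.05. Liver Pdp2 is filled in both fits, and Pdk4 is filled in liver (1.80) and kidney (2.70) only without the 11 numbers. Squares average 5 times, as ZT22 had no iKO library left, and ZT6, ZT14 and ZT18 had 1 each.

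Pdk4, the starvation-induced kinase, had higher averages in iKO in all 3 tissues but was not called with all libraries. In liver it ran from 4.11 to 85.2 CPM in iKO (median 13.5) and from 1.59 to 84.8 CPM in flox (median 5.94). At ZT2 the liver values were 15.0, 4.11 and 16.0 CPM in iKO and 3.45, 1.72 and 2.84 CPM in flox. At ZT10 they were 4.28, 8.94 and 18.9 CPM in iKO and 3.09, 3.61 and 3.96 CPM in flox, and at ZT14 15.6, 13.4 and 26.5 CPM in iKO and 6.24, 7.07 and 5.64 CPM in flox. The iKO livers were above all flox livers at these 3 times, as for 7.07%, 11.2% and 10.1% of genes, and overlapped with them at the other 3. The 2 highest livers were iKO ZT18 2 with 85.2 CPM and flox ZT22 1 with 84.8 CPM, both among the 11 numbers. At ZT22 the mean was lower in iKO, at 21.6 CPM against 38.0 CPM in flox (-0.82, SE 0.81). The flox values at ZT22 ran from 12.6 to 84.8 CPM. With 1 library left out, the difference at ZT22 ran from -1.58 to 0.57 over 36 fits, so its direction was not settled. The liver average over all times was 1.17 (SE 0.34, edgeR adjusted p = 0.0568). Without the 11 numbers, and so without ZT22, the average was 1.80 (SE 0.25), with 1 iKO liver each at ZT6, ZT14 and ZT18. Among the 36 fits without 1 library the average over all times was called in 6. The lowest adjusted p (0.00484) came without flox ZT6 1 and the highest (0.126) without iKO ZT18 2.

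In kidney Pdk4 ran from 20.3 to 570 CPM in iKO (median 63.4) and from 10.3 to 329 CPM in flox (median 24.9). At ZT2 the kidney values were 83.3, 41.1 and 41.0 CPM in iKO and 12.4, 11.6 and 12.1 CPM in flox. At ZT10 they were 82.6, 130 and 135 CPM in iKO and 23.0, 72.9 and 30.2 CPM in flox. All iKO kidneys were above all flox kidneys at these 2 times, where groups without overlap and iKO higher were 4.62% and 7.41% of genes. At ZT22 the direction was the other way, with means of 59.4 CPM in iKO and 124 CPM in flox (-1.07, SE 1.10). The kidney average over all times was 1.37 (SE 0.45, edgeR adjusted p = 0.259). Without the 11 numbers, and so without ZT22, the average was 2.70 (SE 0.26). It then rested on 1 iKO kidney each at ZT6 (172 CPM), ZT14 (570 CPM) and ZT18. Over 36 fits without 1 library the average over all times ran from 0.89 to 1.80 and was called in none. The lowest adjusted p (0.0592) came without flox ZT22 1 and the highest (0.410) without flox ZT18 1. The 3 highest kidneys were iKO ZT14 3 with 570 CPM, flox ZT22 1 with 329 CPM and iKO ZT18 2 with 304 CPM. The kidney library iKO ZT14 3 also had the highest skeletal muscle markers among kidneys, a mean of 4.59 on the log2(CPM + 1) scale against a median of 0.719 over the 36, and their part in its Pdk4 level was not tested. Interferon-stimulated genes, all 14 with a higher median in iKO kidneys, summed to 71.5 to 3079 CPM in iKO (median 339) and 76.7 to 1854 CPM in flox (median 143), and their part was not tested either.

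In WAT Pdk4 ran from 2.53 to 348 CPM in iKO (median 49.2) and from 1.61 to 118 CPM in flox (median 13.4). At ZT14 the WAT values were 38.3, 60.2 and 26.2 CPM in iKO and 4.41, 10.5 and 8.33 CPM in flox. This was the only time at which the groups did not overlap, as for 3.29% of genes with iKO higher. The WAT average was 1.99 (SE 0.54, edgeR adjusted p = 1), and DESeq2 called it (1.96, adjusted p = 0.0343). The highest library, iKO ZT2 3 with 348 CPM, had white adipocyte markers at a mean of 11.9 and epididymis markers at 0.125 on the log2(CPM + 1) scale. The lowest, flox ZT10 1 with 1.61 CPM, had means of 6.08 and 5.14, and iKO ZT10 1 with 2.53 CPM had 4.15 and 8.80. Flox ZT2 3 had 55.6 CPM at means of 11.7 and 0.481, near those of the highest library. The 7 white adipocyte markers summed to 203 to 45166 CPM in iKO and 859 to 36475 CPM in flox, with 5 of 7 medians higher in iKO, and none was at 0 in all libraries. The 7 skeletal muscle markers summed to 6.94 to 38354 CPM in iKO and 3.73 to 62202 CPM in flox. Without the 11 numbers the average was 1.63 (SE 0.74), not called. Without the 9 muscle libraries it was 2.17 (SE 0.78), and without these and the 11 numbers 1.91 (SE 0.88), neither called. The part of adipocyte content was not tested.

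Pdk1 in liver was lower on average in iKO and followed the 11 numbers. It ran from 14.9 to 96.2 CPM in iKO livers (median 32.8) and from 22 to 105 CPM in flox livers (median 65.1). At ZT18 its values were 14.9, 18.5 and 61.5 CPM in iKO and 84.9, 103 and 63.1 CPM in flox, without overlap, as for 11.1% of genes with iKO lower. The difference averaged over the day was -0.80 (SE 0.22, edgeR adjusted p = 0.05002), just above the threshold of 0.05. It was called in 7 of 36 fits without 1 library (-0.95 to -0.66), with the lowest adjusted p (0.00752) without iKO ZT18 3 and the highest (0.0927) without flox ZT6 2, and DESeq2 called it (adjusted p = 0.0105). In the 11 livers Pdk1 had 14.9 to 45.1 CPM (median 22), against 31.7 to 105 CPM (median 61.3) in the 25. Without the 11 the average was -0.41 (SE 0.19, adjusted p = 0.212). Macrophage markers, all 13 of which had a higher median in iKO livers, summed to 139 to 5922 CPM in iKO (median 1942) and 92.4 to 6081 CPM in flox (median 449), and hepatocyte markers to 49058 to 140122 CPM in iKO (median 82485) and 50165 to 152198 CPM in flox (median 124818). Their part in the Pdk1 difference was not tested.

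**Figure D4:**
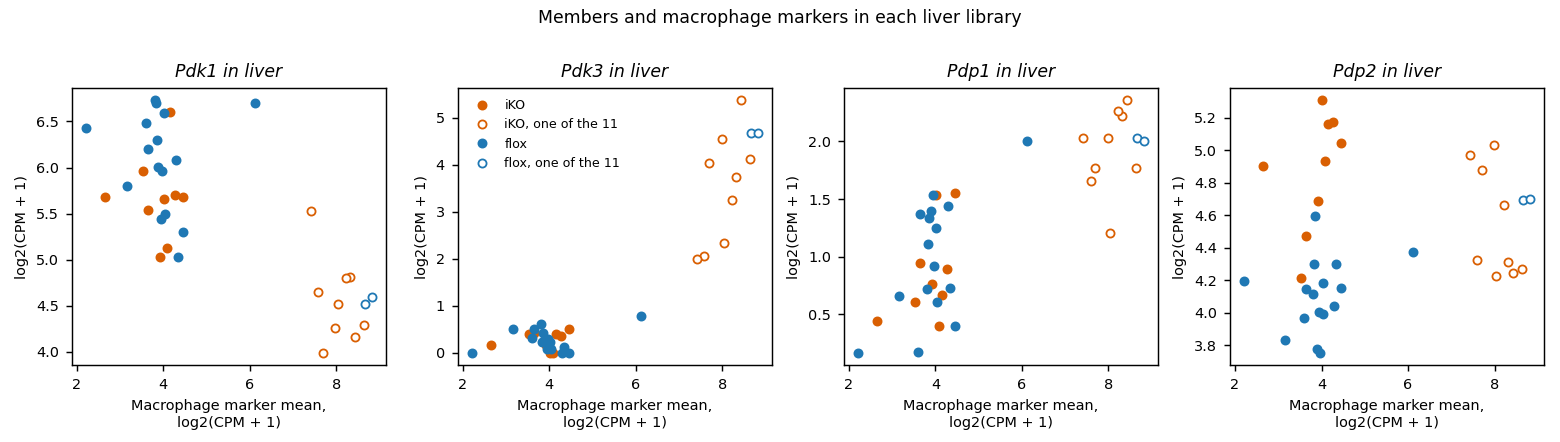
Liver level of Pdk1, Pdk3, Pdp1 and Pdp2 as log2(CPM + 1) against the mean log2(CPM + 1) of 13 macrophage markers, the latter with CPM of library totals. Each point is 1 library, with iKO in orange, flox in blue and the 11 numbers as open circles. The open circles lie low for Pdk1 and high for Pdk3 and Pdp1, and among the other libraries for Pdp2. Only for Pdk3 do they not overlap the other libraries.

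Pdk1 in kidney had a daily rhythm in flox mice. Its values in iKO kidneys were 45.9, 53.6 and 53.3 CPM at ZT2, 50.6, 45.6 and 57.3 at ZT6, 52.9, 61.9 and 68.2 at ZT10, 55.4, 52.7 and 68.7 at ZT14, 47.6, 45.9 and 57.2 at ZT18 and 40.2, 53.7 and 53.7 at ZT22. In flox kidneys they were 53.5, 32.7 and 36.6 CPM at ZT2, 58.5, 61.5 and 63.3 at ZT6, 62.7, 62.4 and 57.1 at ZT10, 57.0, 52.7 and 47.5 at ZT14, 30.0, 39.1 and 44.0 at ZT18 and 42.8, 33.8 and 39.7 at ZT22. Flox kidneys were high at ZT6 and ZT10 and low at ZT18 and ZT22, and iKO kidneys lay within a narrower band. A fitted 24 h cosine had an amplitude of 0.40 in flox (log2 from mean to peak, SE 0.07) with a peak at 9.04 h after lights on (SE 0.63), and edgeR called it (adjusted p = 0.00301, 0.00167 to 0.0110 over 36 fits without 1 library). In iKO the amplitude was 0.15 (SE 0.07) with a peak at 11.4 h (SE 1.66) and was not called (adjusted p = 0.275). The change of rhythm itself had an adjusted p of 1, so the rhythms were not shown to differ. It was the 1 member called among 5.07% of kidney genes called as rhythmic in flox, and no member was called in iKO kidney, where 4.22% of genes were. These backgrounds rest on single libraries: with 1 left out, 170 to 1601 genes were called as rhythmic in iKO kidney (lowest without iKO ZT10 1, highest without iKO ZT2 1) and 346 to 1185 in flox kidney (lowest without flox ZT2 3, highest without iKO ZT2 1). Without the 11 numbers the flox rhythm of Pdk1 was still called (adjusted p = 0.00597) and the iKO rhythm was not (adjusted p = 0.547). At ZT6 all iKO kidneys were below all flox kidneys, as for 3.29% of genes, and at ZT18 all were above, as for 8.84% of genes.

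**Figure D5:**
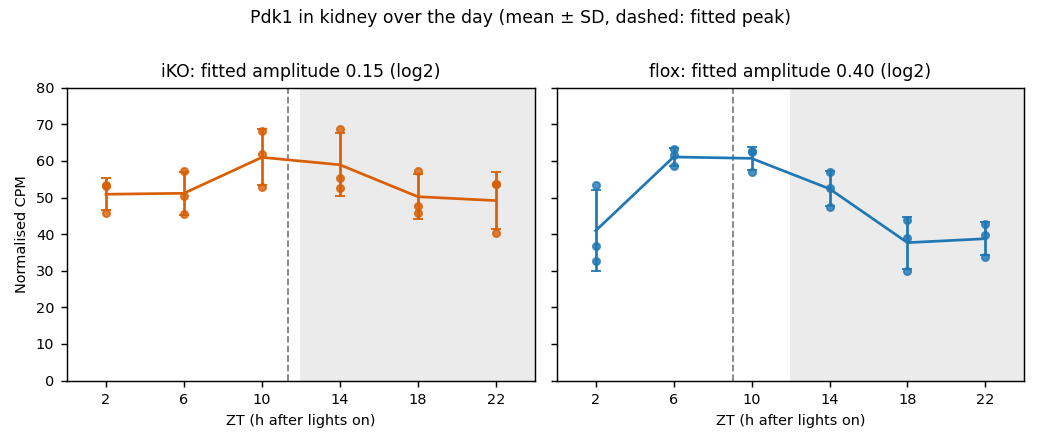
Kidney Pdk1 over the day in iKO (left) and flox (right) as normalised CPM by ZT; points are libraries, lines and bars the mean and SD of 3, shading the dark hours and the dashed line the fitted peak. The flox groups at ZT6 and ZT10 lie above those at ZT18 and ZT22, with a fitted amplitude of 0.40, against 0.15 in iKO.

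The genotype difference of Pdk1 differed between liver and kidney in a fit that takes the libraries of all tissues as independent. The kidney average was 0.17 (SE 0.07, adjusted p = 0.408) and 0.24 (SE 0.10, adjusted p = 0.377) without the 11 numbers, with 40.2 to 68.7 CPM in iKO and 30.0 to 63.3 CPM in flox. The liver average minus the kidney average was -0.97 (SE 0.23, edgeR adjusted p = 0.0291), 1 of 6 members called beside 0.395% of 22789 genes. The labels do not say whether tissues of one genotype, time and number came from one mouse. Xist was high in the same 2 numbers in all 3 tissues. Deviations from the group means correlated above 0.1 in 17 of 36 such pairs of liver with kidney. For liver with WAT it was 6 of 36 and for kidney with WAT 9 of 36. Tissues of different numbers were not compared, so these counts have no baseline. With genotype, time and number as a block the liver minus kidney contrast was -1.01 (SE 0.20, adjusted p = 0.0110). It was not called without the 11 numbers (-0.65, adjusted p = 0.548) or with no filter on low counts (-0.94, adjusted p = 0.0510). No member was called for liver minus WAT (0.592% of genes called) or kidney minus WAT (0.0132%). By DESeq2, 3 members were called for liver minus WAT, beside 3.53% of genes, and 0 for kidney minus WAT, beside 0.255%. At an unadjusted p under 0.05 edgeR passed 4 members for liver minus WAT, beside 13.6% of genes, and 1 for kidney minus WAT, beside 3.15%. In WAT, Pdk1 ran from 52.0 to 164 CPM in iKO and from 58.7 to 148 CPM in flox, a difference of -0.04 (SE 0.14).

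Pdk2 varied little between genotypes in liver and kidney. It ran from 47.7 to 153 CPM in iKO livers and from 87.3 to 169 CPM in flox livers, with a difference of -0.11 (SE 0.10, adjusted p = 0.490), and from 132 to 409 CPM in iKO kidneys and 142 to 341 CPM in flox kidneys (0.04, SE 0.10). Without the 11 numbers the difference was -0.12 (SE 0.11) in liver and 0.25 (SE 0.12) in kidney, neither called. All 3 iKO livers were below all flox livers at ZT2, ZT10 and ZT22, as for 7.72%, 10.4% and 2.88% of genes. They were above all flox livers at ZT18, as for 10% of genes, where the values were 130, 151 and 153 CPM in iKO and 106, 87.7 and 87.3 CPM in flox. The interaction of genotype and time had an adjusted p of 0.760 and passed only the unadjusted threshold of 0.05, so a change of direction with the time of day was not shown. In WAT it ran from 117 to 549 CPM in iKO (median 213) and from 103 to 248 CPM in flox (median 164). At ZT2 the WAT values were 247, 297 and 383 CPM in iKO and 111, 164 and 103 CPM in flox, without overlap, and the groups were also apart at ZT14. Such groups with iKO higher were 2.4% of WAT genes at ZT2 and 3.29% at ZT14. The WAT average was 0.51 (SE 0.15, edgeR adjusted p = 1, DESeq2 adjusted p = 0.288), and the highest library was iKO ZT18 2 with 549 CPM, one of the 9 with muscle markers.

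Pdk3 was nearly absent from most livers and present in the 11. In the 25 livers it had 0 to 0.718 CPM, from 0 to 15 counts, with 5 libraries at 0, and in the 11 it had 3.01 to 40.3 CPM. The highest were iKO ZT6 2 with 40.3 CPM, flox ZT6 1 with 24.6 CPM and flox ZT22 1 with 24.4 CPM. The liver average was 2.06 (SE 0.83, adjusted p = 0.131), and without the 11 numbers it was -0.53 (SE 0.67, adjusted p = 0.733), so its direction followed which libraries were used. With all numbers it was called in 2 of 36 fits without 1 library, with the lowest adjusted p (0.0177) without flox ZT6 1. Macrophage, cell cycle and interferon-stimulated genes were high in the same 11 livers, and their part in Pdk3 was not tested. In kidney the 11 numbers were lower instead, with 19.7 to 41.0 CPM against 18.6 to 83.3 CPM in the 25, alongside the proximal tubule, endothelial and fibroblast markers given for kidney Pdp2, whose part was not tested. The kidney average was -0.06 (SE 0.17), and 0.31 (SE 0.15) without the 11. In WAT it ran from 10.4 to 26.8 CPM in iKO and from 12.4 to 35.8 CPM in flox (-0.18, SE 0.14).

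Pdp1 was low in liver, with 0.322 to 4.12 CPM in iKO and 0.123 to 3.09 CPM in flox, and a difference of 0.45 (SE 0.29, adjusted p = 0.334). It had 1.31 to 4.12 CPM in the 11 livers and 0.123 to 3.01 CPM in the 25, and without the 11 the difference was 0.04. In kidney it ran from 5.16 to 19.5 CPM in iKO and from 5.88 to 19.9 CPM in flox (0.17, SE 0.12), and without the 11 numbers the difference was 0.03 (SE 0.16). In WAT 1 library, flox ZT10 1, had 162 CPM against at most 33.2 CPM in the others. The WAT difference was -0.14 (SE 0.30) and became 0.31 without that library.

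Over all members, no other average was called. In kidney 0 of 6 were called by edgeR and by DESeq2 (1.15% of genes) and 2 passed at an unadjusted p under 0.05, against 0.164% of genes called and 9.43% at the unadjusted threshold. In WAT edgeR called 0 members and 0% of 21402 genes, 2 members and 3.76% of genes passed the unadjusted threshold, and DESeq2 called 1 member beside 0.117% of genes. At single times edgeR called none of the 36 pairs of member and time in any tissue. That compares with 0.0362% of genes at ZT18 in liver, 0.0113% at ZT22 in kidney and 0% at the other times. With 1 library left out the genes called ranged from 0 to 1844 at ZT18 in liver (highest without iKO ZT18 3), 0 to 462 at ZT18 in kidney (highest without iKO ZT18 3) and 0 to 22 at ZT22 in kidney (highest without flox ZT22 2). At an unadjusted p under 0.05 there were 10 of 36 pairs in liver, 5 in kidney and 5 in WAT, against 9.51%, 7.56% and 3.57% of pairs over all genes, and DESeq2 called 3, 0 and 0, against 2.04%, 0.201% and 0.249%. Groups of 3 and 3 livers did not overlap in 9 pairs with iKO higher and 4 with iKO lower, against 7.08% and 7.58% of pairs over all genes. In kidney there were 5 higher and 2 lower (6.15% and 6.34%), and in WAT 3 higher and 0 lower (3.1% and 3.02%).

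Beyond kidney Pdk1, no rhythm of a member was called. In liver 0.0844% of genes were called as rhythmic in iKO and 0.772% in flox. Pdk4 in flox liver had a fitted amplitude of 1.35 (SE 0.37) with a peak at 21.2 h (SE 1.05), late in the dark phase (edgeR adjusted p = 0.0887, DESeq2 adjusted p = 0.0150), and without the 11 numbers edgeR called it (adjusted p = 0.00499). In iKO liver its amplitude was 0.90 (SE 0.37) with a peak at 18.4 h (SE 1.56, adjusted p = 0.421). No change of rhythm and no interaction of genotype and time was called by edgeR in any tissue for a member or for any other gene (0%), and in WAT no rhythm was (0%). The rhythm test of edgeR passed an unadjusted p under 0.05 for Pdk2 in iKO liver (12.2% of genes), Pdk3 and Pdk4 in flox liver (14.9%) and Pdk3 in iKO kidney (22.5%). At an unadjusted p under 0.05 the change of rhythm passed for Pdk2 in liver (4.79% of genes) and Pdk1 in kidney (2.14%), and the interaction for Pdk2 and Pdk3 in liver (6.45%). In WAT none of these passed for a member, beside 3.15% of genes for the change of rhythm and 2.64% for the interaction. DESeq2 called no member for a change of rhythm or an interaction in any tissue, beside at most 0.313% of genes.

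The rest of the pathway was read from lists chosen with earlier results known. As described for Pdk1, macrophage markers were higher and hepatocyte markers lower by median in iKO livers, and their part in the list genes was not tested. Values without the 11 numbers, where 6 of 13 macrophage markers were positive (median -0.03), are therefore given for the called genes, with 3.12% of 17067 genes called higher and 3.91% lower. Other marker lists were not level without the 11: 0 of 14 interferon-stimulated genes (median -0.39) and 0 of 5 cholangiocyte markers (median -0.59) were positive. Of 9 genes for complex subunits and lipoate cofactor, none was called in the liver average by edgeR and 3 passed an unadjusted p under 0.05, with a median difference of 0.11 beside 0.00 for all genes. Pdha1, the subunit that the kinases phosphorylate, had 45.5 ± 14.4 CPM in iKO and 39.9 ± 13.4 CPM in flox livers (SD, n = 18 each; 0.19, SE 0.11, adjusted p = 0.292). Of 13 genes of pyruvate entry and use, 1 rose and 1 fell. Ldha, a lactate dehydrogenase subunit, rose by 0.88 (SE 0.17, adjusted p = 0.00739), and Pklr, the liver pyruvate kinase, fell by 2.58 (SE 0.47, adjusted p = 0.00578). Without the 11 they were 0.63 (SE 0.20, adjusted p = 0.0591) and -2.25 (SE 0.46, adjusted p = 0.00710). Of 5 genes of the related branched-chain ketoacid dehydrogenase and its kinase and phosphatase, edgeR called 0 and 0 passed an unadjusted p under 0.05. Without the 11, 4 of 5 were positive, with a median of 0.21. Among 18 regulators of Pdk4, Cebpb (0.89, SE 0.18, adjusted p = 0.0107) and Pparg (0.83, SE 0.19, adjusted p = 0.0214) rose and 0 fell, and Ppara, the fasting receptor of liver, had 28.5 CPM in iKO and 19.5 CPM in flox on average (0.53, SE 0.18, adjusted p = 0.0870). Without the 11, Pparg (0.73, adjusted p = 0.0300) and Ppara (0.62, adjusted p = 0.0380) were called and Cebpb (0.48, adjusted p = 0.0506) was not.

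Of 18 tested genes among 20 of fasting and PPAR alpha targets, 3 rose in liver and 0 fell, with a median of 0.71 and 18 of 18 positive. They were Cyp4a14, Vnn1 (1.75, SE 0.34) and Cyp4a10, of which the Cyp4a enzymes hydroxylate fatty acids and Vnn1 is a pantetheinase. At an unadjusted p under 0.05 in edgeR, 14 of the 18 passed in liver, all 14 higher, beside 24.6% of all genes in either direction. Without the 11 numbers 15 of 19 rose and 0 fell, with a median of 1.2 beside -0.05 for all genes. Those with the smallest p were Angptl4, a lipase inhibitor, at 2.12 (SE 0.17), Cpt1a, which admits fatty acids to mitochondria, at 1.2 (SE 0.12), Txnip, a glucose-responsive arrestin, at 1.44 (SE 0.19) and Vnn1 at 2.74 (SE 0.36). In kidney edgeR called 0 of 19 and 6 passed an unadjusted p under 0.05, with a median of 0.32, and without the 11 it called 6 of 19, all higher, with a median of 0.79 beside 0.23% of 18245 genes called higher. They included Txnip at 1.13 (SE 0.18). In WAT it called 0 of 20 and 4 passed the unadjusted threshold, with a median of 0.30. Among 12 insulin and glucocorticoid response genes, Srebf1, a regulator of lipid synthesis, fell by 1.72 in liver, and by 2.35 without the 11. Most of this list did not go with it: without the 11, 9 of 12 were positive in liver, with a median of 0.16. Of 10 hypoxia and glycolysis targets and 16 clock genes, edgeR called 0 in liver, while 4 and 6 passed the unadjusted threshold, and in kidney the clock gene Npas2 rose by 1.49. No test compared the lists with other genes.

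Genes with the most similar pattern over the 36 libraries of a tissue were named by Pearson's r of log2 CPM, as a description of libraries that share depth and tissue makeup. In liver, Pdk1 was most like Pklr (0.90), Slc2a2 (0.89) and Hcn3 (0.89), Pdk2 like Phc1 (0.63), Mkrn2 (0.62) and Sphk2 (0.62), and Pdk3 like Tpm3, Zfp36l2 and Slc12a2 (0.95 each). Pdp1 was most like Lyve1 (0.88), a marker of lymphatic and sinusoidal endothelium, Col4a1 (0.85) and Tgtp2 (0.84), and Pdp2 like Dio1 (0.75), Ppara (0.73) and Slc25a30 (0.72). Pdk4 was most like Denn2b (0.79), Cdkn1a (0.78), Hsdl2 (0.77), Ccng2 (0.77) and Iba57 (0.77) in liver. In kidney its nearest genes were Txnip (0.81), Klf10 (0.78), Klf11 (0.77), Lipe (0.76) and Acot2 (0.72), and in WAT Sctr (0.91), Arrdc3 (0.90), Peg3 (0.90), Acadl (0.89) and Slc43a1 (0.88).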

How the data were processed

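RNA sequencing libraries of whole liver, kidney and WAT were used. The deposited values are raw counts per gene made by the authors. The submitters' processing notes name GRCm38 (mm10), the aligner HISAT2 2.0.4, the counter featureCounts 1.5.0-p3 and also DESeq2 1.16.1. How strand was handled in counting is not given in the sources used here. The members and gene lists were chosen with earlier results of these data known. From the counts, edgeR 4.0.16 (R 4.3.3) was run in each tissue on 36 libraries in 12 groups, with filterByExpr, TMM scaling, a robust quasi-likelihood fit, a prior count of 2 and Benjamini-Hochberg adjustment over all genes tested. Rhythm was tested with a 24 h cosine in each genotype, and tissues were compared in one fit of 108 libraries. The SE is the size of the log2 difference over the root of F. Beside the members, the text names up to 4 called genes of a pathway list, those with the smallest p, and the genes of most similar pattern among those whose log2 CPM averaged 1 or more, leaving out predicted genes and clone names (5 for Pdk4 in each tissue, 3 for the others in liver). Pdha1 and Ppara were named outside this rule, after their values were seen. Alternatives were DESeq2 1.42.0, its size factors, library totals, no filter, a replicate block, time as a factor, and leaving out libraries. List genes were also fitted without the 11 numbers, an alternative added after the data were seen. RPKM values used the deposited gene lengths. No pair of libraries of one group differed by as little as sampling noise, with at least 10.5 as chi-square per degree of freedom over 108 pairs. Figures were drawn with matplotlib 3.10.9. Coordinates come from GENCODE M21 and RefSeq on GRCm38, since the table's own coordinates equal GENCODE M21 for 2.87% of 52083 shared genes.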

Additional observations from a re-analysis of the deposited data

Results flagged for a closer look

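The genotype difference of Pdk1 differed between tissues. The average of iKO minus flox was -0.80 (SE 0.22) in liver and 0.17 (SE 0.07) in kidney on the log2 scale, and the contrast of these averages in one fit of all tissues was -0.97 (SE 0.23, edgeR adjusted p = 0.0291). It was called with DESeq2 (-0.96, adjusted p = 0.00343) and not without the 11 numbers (-0.65, adjusted p = 0.548), and the part of the macrophage and hepatocyte markers that moved with them in liver was not tested. Samples far from their group were not sought, as each group has 3.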

How the results depend on the processing

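The count of members called in the liver average was 1, and it was 4 with DESeq2 and 2 each with DESeq2 size factors, library totals only, the replicate block and without the 11 numbers, and 1 to 4 with a library left out. For the 36 pairs of member and time in liver it was 0, but 3 with DESeq2, 1 in fits of 1 time, 1 without the 11 numbers and 0 to 2 with a library left out. For rhythm it went up with time as a factor, to 1 in iKO liver, 2 in flox liver, 4 in iKO kidney and 2 in flox kidney. For flox liver it was 1 with DESeq2 and 1 without the 11, and 0 to 1 with a library left out, and for flox kidney 2 without the 11. For iKO kidney it was 0 to 1 with a library left out. The kidney average gave 1 without the 11 and the WAT average 1 with DESeq2. For liver minus kidney it was 3 with DESeq2 and 0 with no filter or without the 11, and for liver minus WAT 3 with DESeq2. The cause of these changes was not tested. Directions that turned were liver Pdk2 with library totals (0.15), liver Pdk3 without the 11 (-0.53), kidney Pdk3 without the 11 (0.31) and without the 2 Xist numbers (0.00), and kidney Pdp2 without the 11 (0.02). In WAT they were Pdk1 with library totals (0.01), without the 11 (0.25), without the 9 muscle libraries (0.13) and without both (0.26), and Pdp1 (0.08) and Pdp2 (0.04) with library totals. Without the 11, liver minus kidney turned for Pdk3 (-0.99) and Pdp1 (0.00), liver minus WAT for Pdk3 (-0.59) and Pdk4 (0.17), and kidney minus WAT for Pdk1 (0.00), Pdk4 (1.08) and Pdp2 (0.33). With a library left out, kidney Pdk2 ran from -0.01 to 0.08, WAT Pdp1 from -0.27 to 0.31 and WAT Pdp2 from -0.16 to 0.03. Over all genes, 438 were called in the liver average, against 218 with no filter, 796 with the block, 1230 with library totals, 1199 without the 11, 159 without the 2 Xist numbers, 1597 with DESeq2 and 208 to 3247 with a library left out, with the highest without flox ZT6 1. Kidney gave 29 genes, against 77 without the 11, 17 without the 2 Xist numbers, 203 with DESeq2 and 6 to 125 with a library left out. Library totals shifted the median of all genes by 0.28 in liver, 0.11 in WAT and 0.08 in kidney. Replicate numbers were not treated as pairs: 6 of 18 pairs of same-numbered libraries in liver, 5 of 18 in kidney and 10 of 18 in WAT correlated above 0.1, and the block moved Pdk1 in liver to -0.84 (adjusted p = 0.0233). Fits of all tissues with a library left out were not run. Among member values under settings that leave out no single library, 282 kept direction and call, 15 passed the threshold only there and 3 only with the settings reported. Liver Pdk3 and Pdp1 rest on few counts, which limits their precision.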
